A study of Mus musculus with 12 samples.

Results

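Levels of 9 genes that break down retinoic acid or store, release and transport retinol were described in mouse liver: Cyp26a1, Cyp26b1, Lrat, Dhrs3, Rdh11, Rdh16, Rdh10, Aldh1a1 and Rbp4. They were chosen by name and function and found by the gene name of their array probes. All 9 were among the 34741 genes on the array and among the 21186 genes tested, each had 1 probe, and each probe was well above background on all 12 arrays. The liver RNA came from male wild-type ICR mice bought at an age of 5 weeks and adapted for a week. The arrays were of 6 treatments at 2 times, with 1 array per group: all-trans retinoic acid (ATRA), ATRA with diethylnitrosamine (ATRA+DEN), DEN alone, vehicle (water), G0s2 siRNA and control siRNA, each at day 2 and day 7. ATRA is the form of vitamin A that acts on nuclear receptors, and DEN is a carcinogen activated in the liver. Mice drank them in their water, ATRA at 30 mg/L (about 150 µg a day) and DEN at 80 mg/L (about 400 µg a day). ATRA was first dissolved in ethanol and dimethyl sulfoxide, while the vehicle mice received water. The siRNAs were injected into a vein at 1.6 nmol on the day before DEN, and no label tells whether DEN followed in the mice of the siRNA arrays. Whether RNA was pooled across animals is not given.

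In the liver, hepatic stellate cells keep most of the vitamin A as retinyl esters in lipid droplets. Lecithin retinol acyltransferase, Lrat, makes those esters, and Rbp4 carries retinol out of the liver into the blood. Retinol is oxidised to retinal by dehydrogenases such as Rdh10 and Rdh16, retinal is reduced back to retinol by Dhrs3 and Rdh11, and Aldh1a1 oxidises retinal to retinoic acid. The cytochromes Cyp26a1 and Cyp26b1 hydroxylate retinoic acid and so start its removal. Cyp26a1 is a textbook target of retinoic acid receptors, which bind pairs of short direct repeats in DNA.

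Of the 9 genes, Cyp26a1, Cyp26b1 and Lrat had the larger differences with ATRA, and the 250 bases before their start sites, credited to RefSeq on build GRCm38.p6, are shown for that reason. They were searched on both strands for direct repeats of any pair of 4 motifs (AGGTCA or AGTTCA, or these with G as the first base, GGGTCA or GGTTCA), with 1, 2 or 5 bases between them. Cyp26a1 (chr19:37697558-37697807, plus strand) held 1 such repeat, in capitals, with 5 bases between and on the strand opposite to the gene, from 32 to 16 bases before the start. No other motif overlapped it.
Cyp26a1: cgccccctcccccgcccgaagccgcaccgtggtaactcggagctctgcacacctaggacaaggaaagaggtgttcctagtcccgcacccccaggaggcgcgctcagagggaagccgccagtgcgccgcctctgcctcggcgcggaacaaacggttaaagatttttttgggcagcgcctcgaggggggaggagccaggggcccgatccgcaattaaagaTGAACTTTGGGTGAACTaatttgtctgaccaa
Cyp26b1 (chr6:84593811-84594060, minus strand) and Lrat (chr3:82903975-82904224, minus strand) held no such repeat in the window.
Cyp26b1: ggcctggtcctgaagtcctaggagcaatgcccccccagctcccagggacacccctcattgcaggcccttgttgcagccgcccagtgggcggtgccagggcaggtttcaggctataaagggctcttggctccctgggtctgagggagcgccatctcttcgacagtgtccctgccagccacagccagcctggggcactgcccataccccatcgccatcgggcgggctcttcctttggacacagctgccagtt
Lrat: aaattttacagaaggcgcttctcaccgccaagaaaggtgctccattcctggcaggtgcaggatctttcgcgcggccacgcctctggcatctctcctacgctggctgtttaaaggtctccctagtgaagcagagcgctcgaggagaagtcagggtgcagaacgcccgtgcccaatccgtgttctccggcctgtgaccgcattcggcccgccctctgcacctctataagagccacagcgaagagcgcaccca
Among 32851 promoters of the same length, 0.164% held a repeat with 1 base between, 0.174% with 2 and 0.0883% with 5. RefSeq entries were at hand for 8 of the 9 genes, and the promoters of Dhrs3, Rdh11, Rdh16, Aldh1a1 and Rbp4 held no such repeat. Rdh10 had no entry. The match is a description of the letters and was not tied to the array values.

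Levels are given as log2 processed intensity minus the 75th percentile of the array, so a level of 0 is that percentile, and they are not compared between genes. The array files gave between 41.0% and 50.7% of probes well above background on an array, and the 12 hepatocyte markers examined were above background on all 12 arrays. G0s2, the target of the siRNA, had log2 differences of -1.85 at day 2 and -1.19 at day 7 between G0s2 siRNA and control siRNA. Markers of exocrine pancreas, 5 of 8 above background on enough arrays to be tested, summed to between 6.55 and 9.42 on the linear scale in the arrays with ATRA. In the arrays with neither ATRA nor siRNA that sum lay between 7.24 and 40.6, with the highest value in vehicle of day 2. All 6 red cell markers examined were tested and were lower with ATRA by their mean, with a median log2 difference of -0.58. Their sum lay between 86.1 and 226 in the arrays with ATRA and between 60.1 and 594 in those with neither ATRA nor siRNA, again with vehicle of day 2 the highest. All 6 tested of 8 lymphocyte markers were higher by their mean (median 0.21), with sums of 9.37 to 16.7 with ATRA and 7.29 to 19.7 with neither. The part of these markers in the results was not tested. For Cyp26a1 and Cyp26b1 the ATRA means without the pair that holds vehicle of day 2 are given below. The 4 arrays of day 2 without siRNA share a slide. At day 7 the arrays titled ATRA and ATRA+DEN share a slide with both siRNA arrays, while vehicle and DEN lie on another, so slide and ATRA cannot be told apart in the day-7 pairs. For 3 arrays of day 7 the treatment characteristic contradicts the title and source name. The titles were used. The characteristic gives ATRA for the array titled DEN, DEN for the one titled ATRA+DEN and ATRA+DEN for the one titled ATRA.

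ATRA was compared with its absence in 4 pairs of arrays, ATRA with vehicle and ATRA+DEN with DEN on each day. Cyp26a1, Cyp26b1 and Lrat were at least 2-fold higher with ATRA in each of the 4 pairs, so 3 of the 9 genes, against 14 of 21186 genes tested (0.0661%). This count rests on the titles of day 7. By the characteristic, ATRA of day 7 would lie below vehicle for Cyp26a1, Cyp26b1 and Lrat (log2 differences of -1.03, -1.06 and -0.66). Higher in all 4 pairs would be 0 of the 9 genes, against 1350 of all genes. At least 2-fold higher in each pair would be 0 of the 9, against 4 of all genes. The 4 arrays with ATRA would lie above the other 8 for 0 of the 9, against 43 of all genes. The means over the 4 pairs would be 3.12 for Cyp26a1, 2.76 for Cyp26b1, 1.12 for Lrat and -0.27 for Aldh1a1, on the same side of 0 as by the titles. No gene passed limma with Benjamini-Hochberg adjustment in either direction in this design. With an unadjusted p below 0.05, limma gave 736 genes higher with ATRA (3.47%), among them Cyp26a1, Cyp26b1, Lrat and Dhrs3, and 494 lower (2.33%), among them Aldh1a1. In whole liver, fewer cells of a type and less RNA per cell cannot be told apart.

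**Figure D1:**
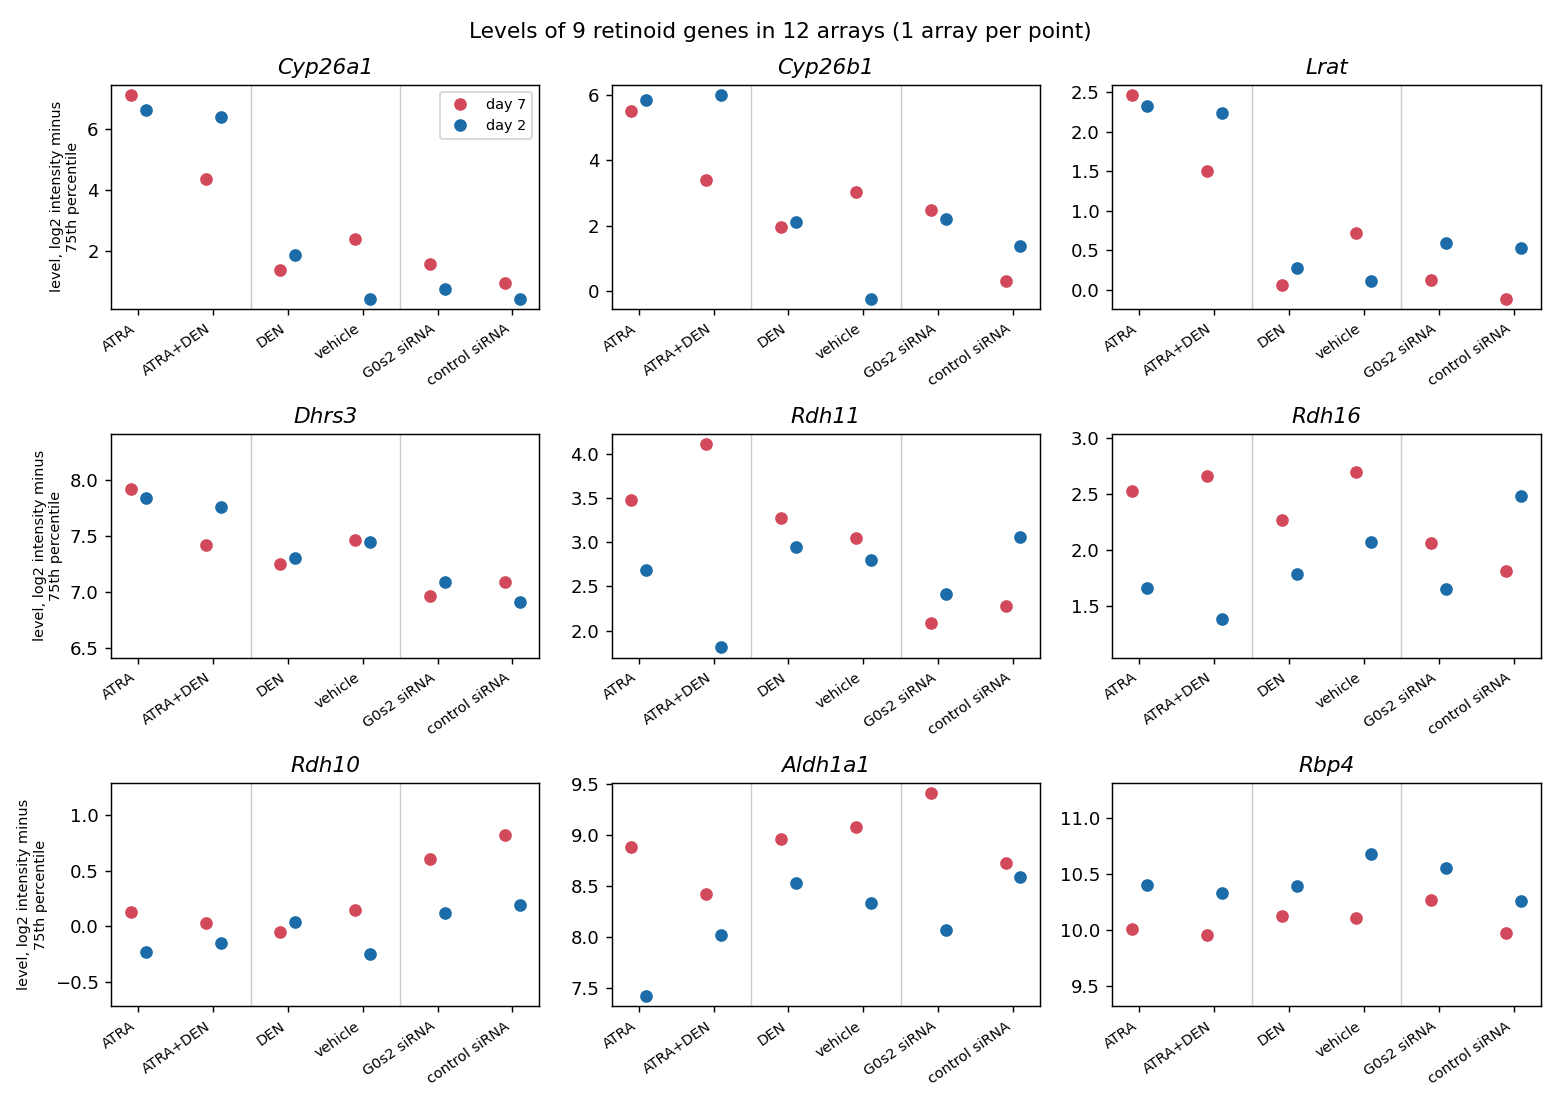
Level (log2 intensity minus the 75th percentile of the array) of each of the 9 genes by treatment, with 1 point per array, day 7 in red and day 2 in blue, on a separate vertical scale per gene. With groups from the titles, the 4 arrays with ATRA lie above the other 8 for Cyp26a1, Cyp26b1 and Lrat, and Rbp4 spans only 0.73 over the 12 arrays.

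The degrading enzymes had the widest ranges. Cyp26a1 (probe on mm9 at chr19:37775566-37775625, plus strand) had levels of 6.63 in ATRA, 6.40 in ATRA+DEN, 1.87 in DEN and 0.42 in vehicle at day 2. At day 7 its levels were 7.10 in ATRA, 4.34 in ATRA+DEN, 1.35 in DEN and 2.38 in vehicle. The siRNA arrays lay between 0.43 and 1.55, so the lowest array with ATRA was above all 8 arrays without it. On the slide of day 7 that holds both ATRA arrays, the G0s2 siRNA and control siRNA arrays had levels of 1.55 and 0.92. The ATRA pairs differed 74.0-fold (ATRA against vehicle) and 23.1-fold (ATRA+DEN against DEN) at day 2, and 26.5-fold (ATRA against vehicle) and 7.92-fold (ATRA+DEN against DEN) at day 7. The mean over the 4 pairs was a log2 difference of 4.61 ± 0.52 (SE, limma, adjusted p = 0.618), that is 24.5-fold, the largest of all genes tested. With ATRA and vehicle of day 2 left out the mean was 4.08, and within the slide of day 2 it was 5.37.

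Cyp26b1, the other retinoic acid hydroxylase of the list (probe at chr6:84521952-84522011, minus strand), also had its highest day-2 levels in the arrays with ATRA. They were 5.85 in ATRA, 6.00 in ATRA+DEN, 2.12 in DEN and -0.24 in vehicle. At day 7 they were 5.51 in ATRA, 3.39 in ATRA+DEN, 1.97 in DEN and 3.03 in vehicle. The ATRA+DEN array of day 7 was thus the lowest of the arrays with ATRA, not far above vehicle of that day, and the 4 siRNA arrays lay between 0.31 and 2.47. The ATRA pairs differed 67.9-fold (ATRA against vehicle) and 14.8-fold (ATRA+DEN against DEN) at day 2, and 5.58-fold (ATRA against vehicle) and 2.68-fold (ATRA+DEN against DEN) at day 7. The mean log2 difference was 3.47 ± 0.78 (SE, limma, adjusted p = 0.736), that is 11.1-fold. It was 2.59 when ATRA and vehicle of day 2 were left out, 4.15 when ATRA+DEN and DEN of day 7 were left out, and 4.98 within the slide of day 2.

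Lrat, the enzyme that esterifies retinol for storage (probe at chr3:82696805-82696864, minus strand), had a smaller and more even difference. Its levels were 2.33 in ATRA, 2.24 in ATRA+DEN, 0.28 in DEN and 0.12 in vehicle at day 2. At day 7 they were 2.46 in ATRA, 1.51 in ATRA+DEN, 0.06 in DEN and 0.72 in vehicle, with the siRNA arrays between -0.11 and 0.60. The arrays with ATRA again did not overlap the other 8. ATRA minus vehicle was 2.21 at day 2 and 1.74 at day 7 on the log2 scale, and ATRA+DEN minus DEN was 1.96 at day 2 and 1.44 at day 7. The mean of 1.84 ± 0.16 (SE, limma, adjusted p = 0.457) corresponds to 3.58-fold and was rank 21 of all genes tested. Genes whose 4 arrays with ATRA lay above the other 8 numbered 36 (0.17%), and Cyp26a1, Cyp26b1 and Lrat were among them.

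Since Lrat is a gene of stellate cells, markers of those cells were set beside it. Of 16 markers 15 were tested, and none passed limma in either direction, as no gene of the 21186 tested did. Their summed linear level lay between 214 and 279 in the arrays with ATRA and between 208 and 293 in the arrays with neither ATRA nor siRNA. By their mean 5 were higher and 10 lower with ATRA, with a median of -0.04 on the log2 scale. The median in a pair was 0.63 for ATRA+DEN minus DEN and -0.13 for ATRA minus vehicle at day 2, and -0.01 for ATRA+DEN minus DEN and -0.28 for ATRA minus vehicle at day 7. Col1a1, a collagen chain, differed by 1.62 for ATRA+DEN minus DEN and by -1.24 for ATRA minus vehicle at day 2. Ngfr, Cygb and Ecm1 were higher with ATRA in all 4 pairs, by mean log2 differences of 0.65, 0.50 and 0.07. That is 3 of the 15 tested, against 1448 of all genes (6.83%), with the day-7 groups from the titles. Gfap was above background on no array.

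**Figure D2:**
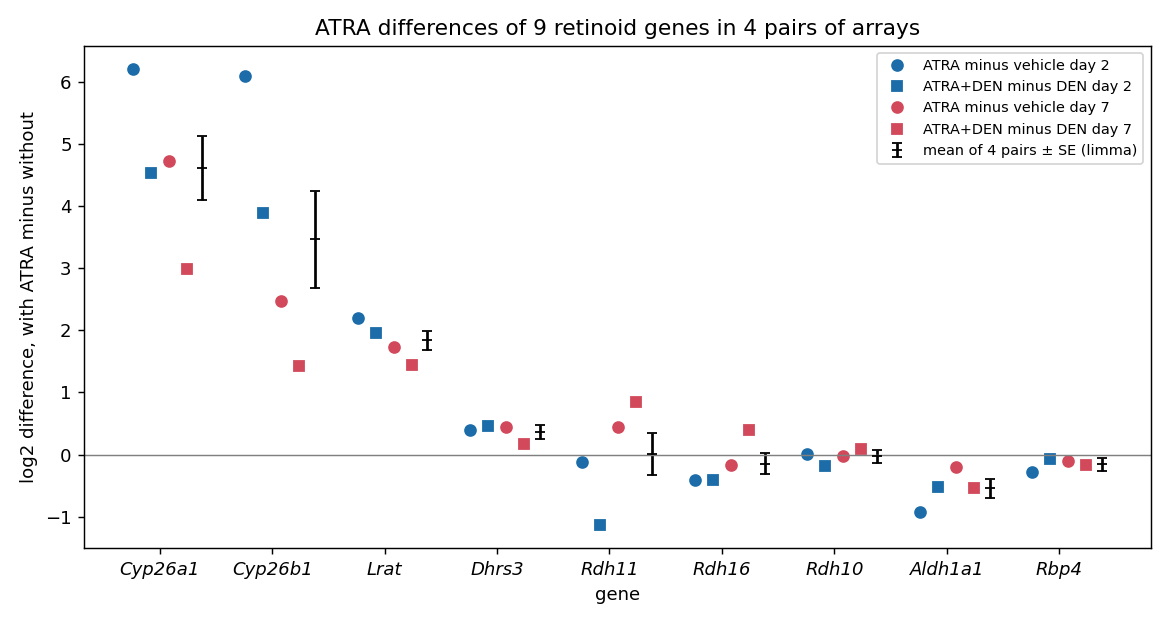
Log2 difference with ATRA minus without, for each of the 9 genes in the 4 pairs of arrays (circles without DEN, squares with DEN, blue for day 2, red for day 7). The black bar is the mean of the 4 pairs with its standard error from limma, 4.61 ± 0.52 for Cyp26a1 and 0.01 ± 0.34 for Rdh11.

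The genes that reduce retinal differed from each other. Dhrs3 (probe at chr4:144517485-144517544, plus strand) had levels of 7.84 in ATRA, 7.76 in ATRA+DEN, 7.30 in DEN and 7.45 in vehicle at day 2. At day 7 they were 7.92 in ATRA, 7.42 in ATRA+DEN, 7.25 in DEN and 7.47 in vehicle, and 3 of the 4 arrays with ATRA lay above all others. Its mean log2 difference was 0.37 ± 0.11 (SE, limma, adjusted p = 0.820), with the higher level with ATRA in 4 of 4 pairs. A higher level in all 4 pairs was found for 1448 genes (6.83%), which included 4 of the 9 genes.

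Rdh11, also a retinal reductase (probe at chr12:80276608-80276667, minus strand), went opposite ways on the days. At day 2 its levels were 2.68 in ATRA, 1.81 in ATRA+DEN, 2.95 in DEN and 2.80 in vehicle. At day 7 they were 3.48 in ATRA, 4.11 in ATRA+DEN, 3.27 in DEN and 3.04 in vehicle. Both day-7 differences were above 0 (ATRA+DEN minus DEN 0.84, ATRA minus vehicle 0.44), and both day-2 differences below it (ATRA+DEN minus DEN -1.14, ATRA minus vehicle -0.11), as for 2327 genes (11.0%). By the characteristic the day-7 differences would be -0.63 for ATRA+DEN minus DEN and 0.23 for ATRA minus vehicle. The mean over the pairs was 0.01 ± 0.34 (SE, limma, adjusted p = 0.999), and its sign turned after quantile normalization (-0.028) and within the slide of day 2 (-0.63).

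The retinol dehydrogenases of the list had small differences. Rdh16 (probe at chr10:127252579-127252638, plus strand), which oxidises retinol in liver, had levels of 1.67 in ATRA, 1.38 in ATRA+DEN, 1.79 in DEN and 2.07 in vehicle at day 2. At day 7 they were 2.53 in ATRA, 2.67 in ATRA+DEN, 2.27 in DEN and 2.70 in vehicle, so the arrays with and without ATRA overlapped. Its mean ATRA difference was -0.15 ± 0.17 (SE, limma, adjusted p = 0.939). Rdh10 (probe at chr1:16122062-16122121, plus strand), which carries out the same step and is required in the mouse embryo, lay between -0.23 and 0.13 in the 4 arrays with ATRA. It lay between -0.25 and 0.15 in the 4 arrays with neither ATRA nor siRNA, and its mean ATRA difference was -0.03 ± 0.11 (SE, limma, adjusted p = 0.984). Its 2 highest levels, 0.60 and 0.82, were in the G0s2 siRNA and control siRNA arrays of day 7.

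Aldh1a1, which makes retinoic acid from retinal (probe at chr19:20717764-20717823, plus strand), was lower with ATRA in 4 of 4 pairs. Its levels at day 2 were 7.42 in ATRA, 8.02 in ATRA+DEN, 8.53 in DEN and 8.34 in vehicle. At day 7 they were 8.89 in ATRA, 8.42 in ATRA+DEN, 8.96 in DEN and 9.08 in vehicle, so the difference was widest between ATRA and vehicle of day 2. The mean was -0.54 ± 0.15 on the log2 scale (SE, limma, adjusted p = 0.782). Rbp4, the carrier of retinol in blood (probe at chr19:38191120-38191179, minus strand), lay between 9.95 and 10.40 in the arrays with ATRA and between 10.11 and 10.68 in the arrays with neither ATRA nor siRNA. Its mean difference of -0.15 ± 0.10 (SE, limma, adjusted p = 0.898) had the same sign in 4 of 4 pairs but was 0.00 after quantile normalization. A lower level with ATRA in all 4 pairs was found for 1492 genes (7.04%), and Aldh1a1 and Rbp4 were among them. These counts rest on the titles of day 7. By the characteristic, ATRA+DEN minus DEN of day 7 would be 0.46 for Aldh1a1 and 0.06 for Rbp4. With those groups 1527 genes would be lower in all 4 pairs, and of the 9 only Rdh16 would be among them. Rbp4 lies near Cyp26a1 on the same chromosome, with 3 protein-coding genes between them in the RefSeq annotation, and their mean ATRA differences were -0.15 and 4.61.

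**Figure D3:**
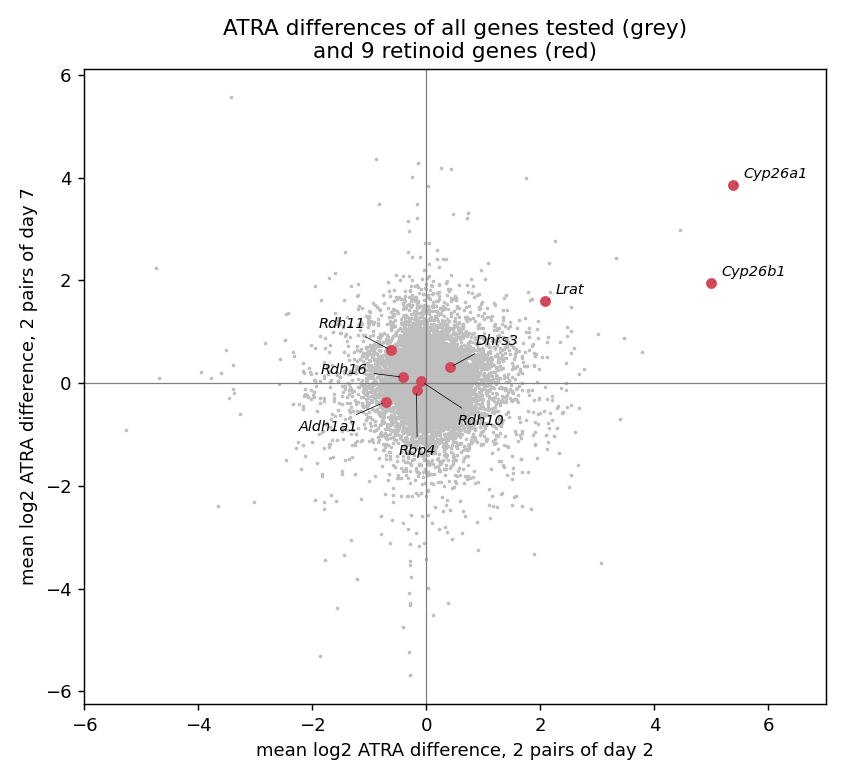
Mean log2 ATRA difference of the 2 pairs of day 2 (horizontal) and of the 2 pairs of day 7 (vertical) for all 21186 genes tested (grey) and the 9 genes (red). Cyp26a1 lies at 3.86 at day 7 and 5.37 at day 2, Cyp26b1 at 1.95 at day 7 and 4.98 at day 2, and Rdh11 at 0.64 at day 7 and -0.63 at day 2.

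The comparison of ATRA pairs with and without DEN asked whether the carcinogen altered the ATRA difference. For Cyp26a1 the difference was smaller with DEN than without it, with log2 values of -1.68 at day 2 and -1.74 at day 7. For Cyp26b1 these values were -2.20 and -1.06, and for Lrat -0.24 and -0.30. Cyp26a1 and Cyp26b1 were among 184 genes (0.868%) whose signed ATRA difference was at least 2-fold lower with DEN on both days. The sign is kept in that count, so it can also hold genes that were more strongly lower with ATRA when DEN was given. The limma interaction, with slide as a block, was -1.71 ± 1.27 for Cyp26a1, -1.63 ± 1.46 for Cyp26b1 and -0.27 ± 0.47 for Lrat (SE, adjusted p = 0.9996 for each), so none passed. No gene passed this limma test, against 413 genes higher (1.95%) and 351 lower (1.66%) with an unadjusted p below 0.05, with none of the 9 among them.

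The arrays behind that similar number differed between the days. At day 2 the ATRA+DEN and ATRA arrays had nearly the same Cyp26a1 level, 6.40 and 6.63, and the DEN array was above vehicle, 1.87 against 0.42. At day 7 ATRA+DEN was below ATRA, 4.34 against 7.10, and DEN was below vehicle, 1.35 against 2.38. Cyp26b1 showed the same layout. Its ATRA+DEN array differed from ATRA by 0.16 at day 2 and by -2.12 at day 7, while DEN differed from vehicle by 2.36 at day 2 and by -1.06 at day 7. For Lrat, ATRA+DEN minus ATRA was -0.09 at day 2 and -0.95 at day 7. The day-7 values rest on the titles of the 3 arrays with contradicting labels: by the characteristic, the Cyp26a1 level at day 7 would be 7.10 in ATRA+DEN, 1.35 in ATRA, 4.34 in DEN and 2.38 in vehicle. With those groups the interaction of Cyp26a1 was 1.06, that of Cyp26b1 0.49 and that of Lrat 0.68.

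**Figure D4:**
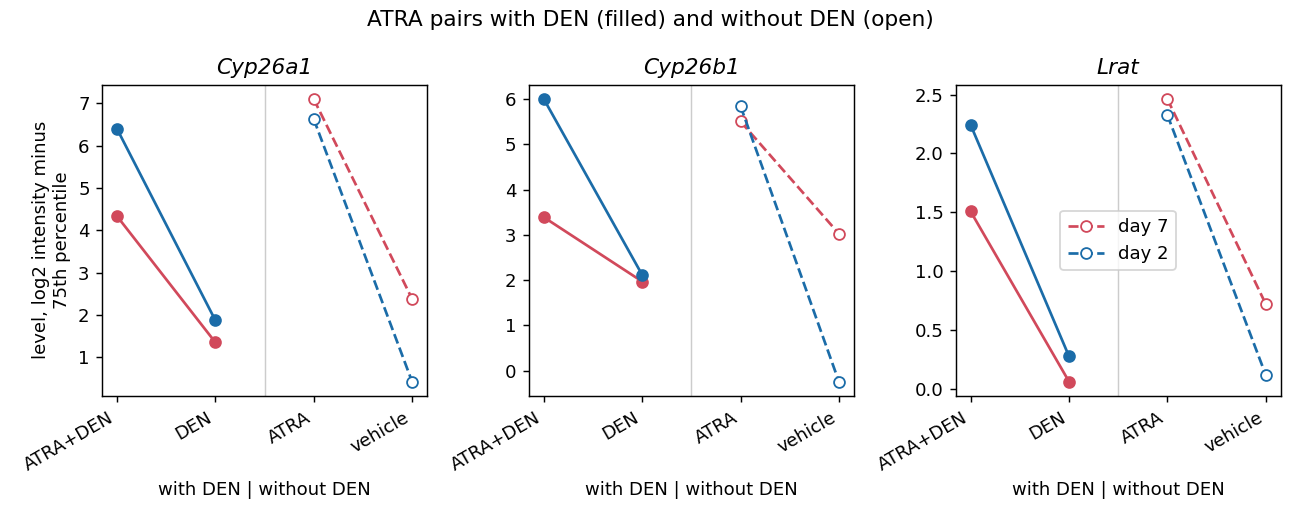
Levels of Cyp26a1, Cyp26b1 and Lrat (log2 intensity minus the 75th percentile of the array) in ATRA+DEN and DEN (filled, solid lines) and in ATRA and vehicle (open, dashed lines), with 1 array per point, blue for day 2 and red for day 7. At day 7 the ATRA+DEN points lie below the ATRA points, at 4.34 against 7.10 for Cyp26a1.

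The mean DEN difference over 4 pairs, DEN against vehicle and ATRA+DEN against ATRA, passed limma for no gene (5.48% of genes higher and 6.78% lower with an unadjusted p below 0.05). It was -0.65 ± 0.63 for Cyp26a1 and -0.16 ± 0.71 for Cyp26b1 (SE, limma, adjusted p = 0.708 and 0.947). Leaving out ATRA+DEN and ATRA of day 7 gave 0.06 and 0.49, and leaving out DEN and vehicle of day 7 gave 0.13 for Cyp26b1. For Lrat the mean was -0.38 ± 0.20 and for Dhrs3 -0.23 ± 0.11 (SE, limma, adjusted p = 0.481 and 0.458). Dhrs3 was lower with DEN in 4 of 4 pairs, as were 2655 genes (12.5%). Cyp26b1, Rdh10 and Aldh1a1 were lower with DEN in both day-7 pairs and higher in both day-2 pairs, as were 1241 genes (5.86%). By the day-7 characteristic the means would turn to 2.23 for Cyp26a1, 1.60 for Cyp26b1, 0.81 for Lrat and 0.10 for Dhrs3, and Dhrs3 would be lower in 3 of 4 pairs, with ATRA+DEN minus ATRA of day 7 at 0.67.

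Whether the ATRA difference was another one at day 7 than at day 2 was tested with the pair as a block. Both day-7 pairs span slides and both day-2 pairs do not. Slide and day therefore cannot be told apart in these values. The day-7 difference minus that of day 2 was -3.04 ± 0.89 for Cyp26b1, -1.51 ± 0.88 for Cyp26a1, -0.49 ± 0.23 for Lrat and 1.27 ± 0.43 for Rdh11 (SE, limma, adjusted p = 0.495, 0.614, 0.559 and 0.510 in this order). No gene passed, and with an unadjusted p below 0.05 limma gave 1154 genes higher (5.45%), with Rdh11 among them, and 897 lower (4.23%), with Cyp26b1 among them. Both day-7 differences of Cyp26b1 and of Lrat were below both of day 2, as for 3952 genes (18.7%). By the characteristic the values would be -4.46 for Cyp26b1, -4.50 for Cyp26a1, -1.94 for Lrat and 0.42 for Rdh11. The vehicle arrays differ too: Cyp26b1 was 3.03 at day 7 and -0.24 at day 2 there, and Cyp26a1 2.38 and 0.42.

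G0s2 siRNA was set against control siRNA in 2 pairs. Cyp26b1 was higher with G0s2 siRNA, at 2.21 against 1.36 on day 2 and 2.47 against 0.31 on day 7, a mean log2 difference of 1.50 ± 1.00 (SE, limma, adjusted p = 0.745). Rbp4 was 10.55 with G0s2 siRNA against 10.26 with control siRNA at day 2 and 10.27 against 9.97 at day 7, a mean of 0.30 ± 0.13 (SE, limma, adjusted p = 0.696), which was 0.070 after quantile normalization and 0.064 in the deposited table. The Cyp26b1 mean was 0.84 without the siRNA pair of day 7. Markers of Kupffer cells, all 8 tested, summed to 201 with G0s2 siRNA against 298 with control siRNA at day 2 and 62.9 against 102.9 at day 7, and their part in these differences was not tested. No gene passed limma here (4.08% higher and 2.71% lower with an unadjusted p below 0.05), and none of the 9 reached that unadjusted level.

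Day 7 was compared with day 2 over 6 pairs of arrays of the same treatment. Day and slide cannot be told apart, and 26.3% of genes were higher and 20.5% lower at day 7 by limma, with a median log2 difference of all genes of 0.11. Aldh1a1 was higher at day 7 in 6 of 6 pairs (as were 25.0% of genes), by 0.75 ± 0.20 (SE, limma, adjusted p = 0.0193), with the smallest change in control siRNA, 8.72 at day 7 and 8.58 at day 2. These pairs follow the titles. By the characteristic, DEN would have an Aldh1a1 level of 8.42 at day 7 and 8.53 at day 2, so not all 6 pairs would be higher. The day effect was not fitted with those groups. Without the G0s2 siRNA arrays the Aldh1a1 difference was 0.64 (limma, adjusted p = 0.0508). Rbp4 was lower at day 7 in 6 of 6 pairs (as were 18.3% of genes), by -0.36 ± 0.09 (SE, limma, adjusted p = 0.0156). Both calls depended on the scaling, and after quantile normalization the difference was 0.50 for Aldh1a1 (limma, adjusted p = 0.0807) and -0.01 for Rbp4 (limma, adjusted p = 0.929). Rdh10 and Rdh16 differed by 0.33 ± 0.12 and 0.50 ± 0.24 (SE, limma, adjusted p = 0.0547 and 0.120). The remaining 5 genes had adjusted p-values between 0.373 and 0.911.

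The other genes of the retinoid pathway were described in 4 lists, of which 31 genes were tested in all. None of them passed limma for ATRA, as no gene of the 21186 tested did. Among enzymes that make or break down retinoic acid, 3 of 6 were tested, with a median log2 difference of -0.06. Cyp2s1, a cytochrome that can oxidise retinoic acid, had a mean of -0.24 with pairs from -1.44 to 2.05. It was well above background on only 7 of the 12 arrays, and its level in vehicle of day 2 was -5.23. Aldh8a1, described as a retinal dehydrogenase, had a mean of -0.06. Cyp26c1, the remaining member of the Cyp26 family and the neighbour of Cyp26a1 in the genome, was not above background on enough arrays to be tested. Of the other retinol and retinal dehydrogenases 14 of 15 were tested, with a median of -0.07. Rdh13 was higher with ATRA in all 4 pairs (mean 0.21), as were 6.83% of all genes. Rdh5 and Rdh7 were lower in all 4 (means -0.18 and -0.13), as were 7.04% of all genes. By the day-7 characteristic these 3 means would be 0.021, -0.028 and -0.018, and with normexp background correction 0.067, -0.093 and -0.061.

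Of the retinoid binding and transport genes 5 of 9 were tested, with a median of -0.17. Ttr, the partner of Rbp4 in blood, was lower with ATRA in all 4 pairs (as were 7.04% of genes), with a mean of -0.21 ± 0.10 (SE, limma, adjusted p = 0.877). It was -0.097 after quantile normalization and -0.035 by the characteristic. Of the genes that make or hydrolyse retinyl esters or cleave carotenoids 9 of 10 were tested, with a median of -0.19. Bco2, a carotenoid-cleaving enzyme, was 0.74 in ATRA, 1.03 in ATRA+DEN, 1.49 in DEN and 1.78 in vehicle at day 2. At day 7 it was 0.79 in ATRA, 0.94 in ATRA+DEN, 1.47 in DEN and 1.80 in vehicle. Its mean of -0.76 ± 0.15 (SE, limma, adjusted p = 0.736) did not pass, and the siRNA arrays, from 0.27 to 1.60, overlapped those with ATRA. Bco1, which makes retinal from carotene, and the esterase Ces1d were lower in all 4 pairs with means of -0.21 and -0.19. With Bco2, 3 of the 9 tested were lower in all 4 pairs, against 1492 of all genes (7.04%). By the characteristic the mean of Bco2 would be -0.50 and that of Bco1 -0.055, and with median centring that of Ces1d was -0.12. The median over all genes tested was 0.00.

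**Figure D5:**
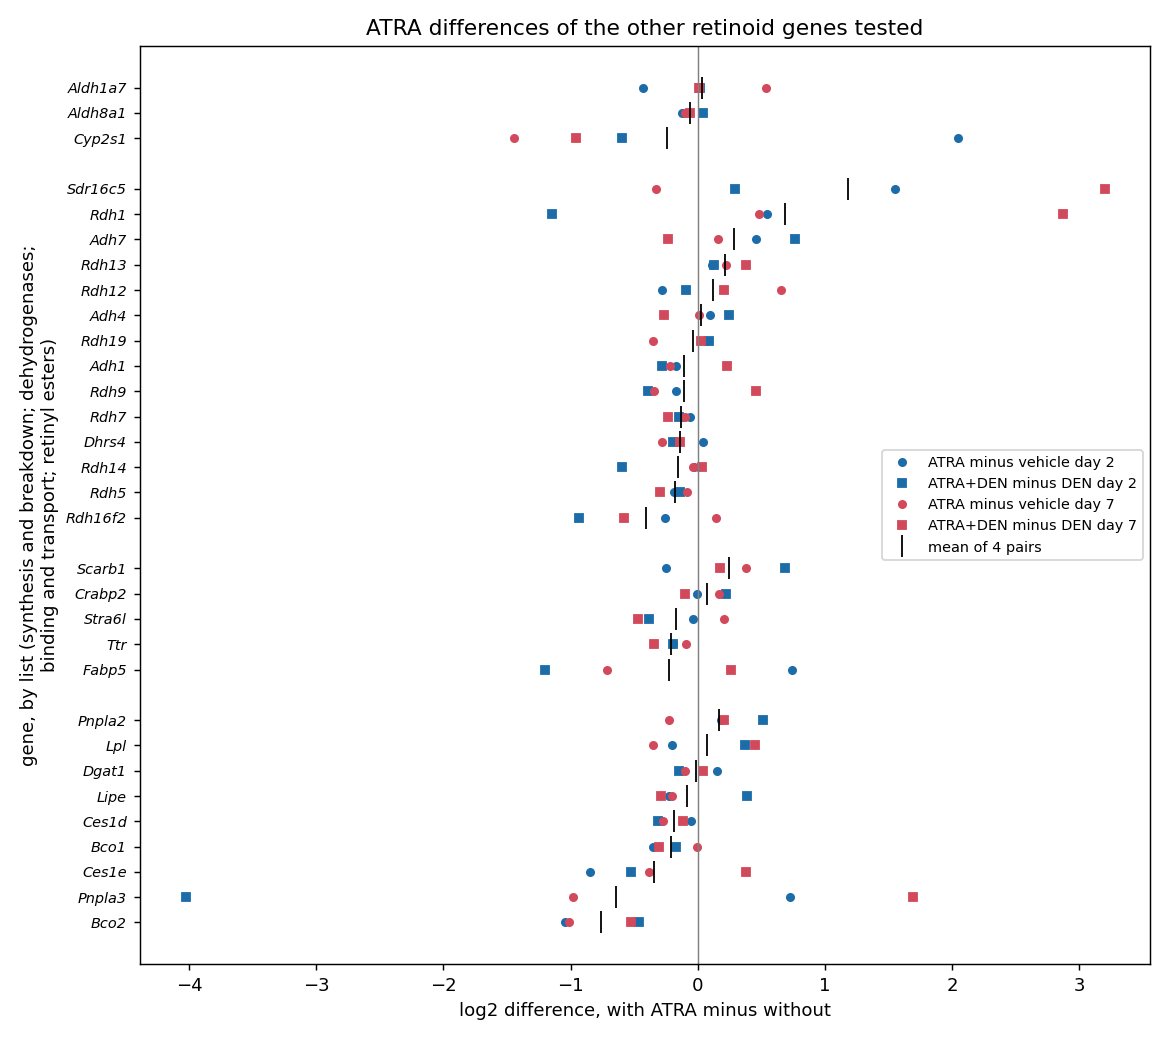
Log2 difference with ATRA minus without for the 31 other retinoid genes tested, in the 4 pairs of arrays (circles without DEN, squares with DEN, blue for day 2, red for day 7), grouped by list, with the mean as a black tick. All 4 points of Bco2 lie below 0, with a mean of -0.76, and all 4 of Rdh13 above it, with a mean of 0.21.

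The genes whose level was most like that of Cyp26a1 over the 12 arrays were found by Pearson's r. The ranking covered 13558 tested protein-coding genes with a symbol in the reference table, with predicted genes and clones left out. Lrat had the highest (r = 0.958), followed by Ptpru, a receptor-type phosphatase (0.951), Cyp26b1 (0.940), Rarb, a retinoic acid receptor (0.935), and Itga11, an integrin subunit (0.932). Dhrs3 was at rank 10 with 0.881, and the remaining genes of the 9 lay between -0.381 and 0.114. These r describe 12 arrays that share slides and treatments, with the ATRA arrays as the high ones. The mean ATRA differences of Ptpru, Rarb and Itga11 were 1.50 ± 0.27, 1.11 ± 0.26 and 1.71 ± 0.26 (SE, limma, adjusted p = 0.716, 0.736 and 0.681). With normexp background correction those of Ptpru and Itga11 were 0.89 and 0.71, and that of Ptpru was 0.84 when its probes were averaged. Itga11 was well above background on 9 of the 12 arrays. Rarb had levels of 1.54 in ATRA, 1.73 in ATRA+DEN, 0.62 in DEN and 0.09 in vehicle at day 2. At day 7 it had 2.26 in ATRA, 0.74 in ATRA+DEN, 0.51 in DEN and 0.61 in vehicle. As for Cyp26a1 and Lrat, its ATRA+DEN array of day 7 was below the ATRA array.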

How the data were processed

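The authors deposited 1-colour array files whose intensities had been background-subtracted by Agilent Feature Extraction, version 10.7.1.1 per the file headers and 9.5.1.1 per the submitters' processing notes. A deposited series table of normalized intensities was used only as an alternative, since its values were quantile normalized separately for each day. Control spots were left out, and spots of a probe were averaged after log2 transformation, with the 75th percentile of each array subtracted. For genes with several probes the brightest on average was kept, and the gene was tested where 2 or more of the 12 arrays had it well above background. Effects were tested with limma 3.58.1 (R 4.3.3) over all 21186 genes, with Benjamini-Hochberg adjustment at 0.05, and the fits were checked on simulated data. The ATRA effect used 8 arrays with the pair as a block, the DEN and G0s2 siRNA effects all 12, the interaction of DEN and ATRA had slide as a block, and day had treatment as a block. Errors are standard errors of the limma fit, which in the fits of all 12 arrays come from the residuals of the whole fit and not from the spread between the pairs compared. The array number, 1 per group, limits the precision, and an exact sign-flip test over 4 pairs cannot go below p = 0.125.

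The 9 genes, the lists, the motif search and the tests were chosen with earlier results of these data known. All 9 genes were named. Of each pathway list, up to 4 genes with the largest mean among those of the same sign in all 4 pairs were named, or up to 2 with the largest where none had that. Of the pathway and marker lists 2 genes are not reported here. The 5 genes most correlated with Cyp26a1 among the protein-coding genes ranked were named. Probe positions are mm9, as in the array files. Probes were named by accession (27235), symbol (3581) or synonym (565), and 24300 kept the name in the file. Alternatives were background correction, normalization, probe filter, probe choice, slide as a block, the deposited table, the day-7 labels and arrays left out.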

Additional observations from a re-analysis of the deposited data

Results flagged for a closer look

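Some of the 9 genes differed in opposite directions on the days in all arrays compared. The DEN difference of Cyp26b1 was below 0 in both day-7 pairs and above 0 in both day-2 pairs, with day 7 minus day 2 at -2.84, and that of Aldh1a1 did likewise at -0.69 and that of Rdh10 at -0.33, a pattern found for 1241 genes (5.86%). The difference between days was not tested for DEN. The ATRA difference of Rdh11 was above 0 in both day-7 pairs and below 0 in both day-2 pairs, a pattern found for 2327 genes (11.0%). Its day 7 minus day 2 was 1.27 (limma, adjusted p = 0.510). The day-7 ATRA pairs span slides and the day-2 ones do not, so slide and day cannot be told apart there. By the day-7 characteristic the pattern would hold for Aldh1a1 with DEN but not for Cyp26b1 or Rdh10, whose day-7 differences would be 3.54 and 0.36 for Cyp26b1 and 0.17 and -0.11 for Rdh10 (ATRA+DEN minus ATRA, then DEN minus vehicle). For Rdh11 with ATRA it would not hold, and Rbp4 would have it instead. With those groups, opposite signs on the days would be found for 2943 genes with DEN and for 1802 genes with ATRA.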

How the results depend on the processing

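Cyp26a1, Cyp26b1, Lrat and Dhrs3 were higher with ATRA, and Aldh1a1 lower, under all 13 alternatives, with mean log2 differences of 3.12 to 5.37, 2.59 to 4.98, 1.12 to 2.08, 0.28 to 0.43 and -0.72 to -0.27. No gene passed for ATRA under any. With normexp background correction 4 genes passed for ATRA by day, 13 for DEN and 4 for G0s2 siRNA, against 0 in each. With day as the block 1 gene passed for the interaction of DEN and ATRA, and with one siRNA pair left out between 0 and 1 for G0s2 siRNA. The cause of these changes was not tested. The ATRA mean of Rdh11 was -0.028 after quantile normalization, -0.019 in the deposited table, -0.63 with slide as a block and -0.41 with the day-7 characteristic, and -0.27 to 0.39 with a pair left out. That of Rdh10 was 0.0044 with normexp, 0.037 with median centring and -0.065 to 0.026 with a pair left out. That of Rbp4 was 0.0018 after quantile normalization and 0.0020 in the deposited table. Cyp2s1 had 0.73 with slide as a block, 0.24 with the characteristic and -0.9998 to 0.16 with a pair left out, and Aldh8a1 0.0029 with median centring. With the characteristic, the interaction was 1.06 for Cyp26a1, 0.49 for Cyp26b1 and 0.68 for Lrat, and the DEN mean 2.23, 1.60 and 0.81 for the same genes and 0.10 for Dhrs3. With a pair left out the DEN mean lay between -1.34 and 0.063 for Cyp26a1 and between -1.01 and 0.49 for Cyp26b1.

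The day calls changed with the scaling. Of the genes that differed by day 56.1% were higher at day 7, against 60.6% with normexp, 48.8% after quantile normalization and 74.3% with median centring, and the median of all genes was 0.11, 0.07, 0.03 and 0.36 in that order. With median centring Rbp4 was at -0.11 (limma, adjusted p = 0.450), Rdh10 at 0.58 and Rdh16 at 0.75 (limma, adjusted p = 0.0168 and 0.0247). Without G0s2 siRNA Aldh1a1 was at 0.64 (limma, adjusted p = 0.0508). Rdh10 also passed without DEN and Rdh16 without control siRNA (limma, adjusted p = 0.0261 and 0.0153).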

Other observations

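Over the 8 arrays without ATRA, Cyp26a1 and Cyp26b1 had Pearson's r = 0.746 (exact permutation p = 0.0334, adjusted p = 0.603 over the 36 relations among the 9 genes) and Spearman's rho = 0.762 (exact permutation p = 0.0368, adjusted p = 0.794). Without the 2 arrays farthest from the median, r was 0.629. The pair was picked out after its values were seen. The relation failed the adjustment, and 4 arrays per day are too few for values within days.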
